A study of Danio rerio with 12 samples.

Results

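The genes described here build and use acidic organelles: the subunits of the vacuolar proton pump (V-ATPase), the cathepsin proteases and LAMP membrane proteins of lysosomes, and the BLOC, AP-3, HOPS and CORVET complexes that sort cargo to lysosomes and to melanosomes. They were selected by gene name alone, from the start of the symbol. The name rule uses no measured values, but it was chosen with earlier results of these data known. The selection gave 72 gene identifiers out of the 25878 in the deposited expression table. These carry 66 distinct symbols, because zebrafish paralogs often share a human-style name, and 12 of the identifiers share their symbol with another one and are told apart by their Ensembl identifier.

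The samples were trunk neural crest of zebrafish embryos carrying the sox10:H2B-Dendra2 transgene, a nuclear photoconvertible protein under sox10 regulatory sequence, and all of them are labelled as control treatment. Neural crest cells leave the dorsal neural tube, migrate between the tissues of the trunk and form, among other fates, the pigment cells and the neurons and glia of the peripheral nervous system. Photoconverted cells were sorted before migration at 16 hours post-fertilisation (premigratory, 4 libraries) or as migratory cells at 24 hours post-fertilisation (migratory, 8 libraries). The later age is given as 23 to 24 hours in the series' design text, and these cells were taken beside somites 10 to 15. Below, "after migration" and "after it" stand for the migratory libraries and do not mean that migration had ended. Each library was made from 20 cells, 8 embryos were photoconverted for each population, and the labels call the samples biological replicas. Leading and following cells were marked separately at the later stage, per the labels' protocols, but the labels do not say which library holds which. Stage and age change together in this design and cannot be told apart. The somites are given for the migratory cells only, so a difference of position in the trunk cannot be told apart from them either. In libraries of pooled cells, a smaller number of cells of a type cannot be told apart from less RNA per cell.

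The V-ATPase pumps protons into lysosomes, endosomes and melanosomes. Its cytosolic V1 sector hydrolyses ATP, and the rotation this drives turns the ring of the membrane sector V0, which carries the protons. Melanosomes, the pigment granules of melanophores, are lysosome-related organelles: BLOC-1, BLOC-2, BLOC-3 and the adaptor AP-3 route pigment enzymes to them, and HOPS tethers late endosomes and lysosomes before fusion. In zebrafish, mutants of several V-ATPase subunits and of Vps11, Vps18 and Vps39 have pale melanophores, and in humans mutations of the BLOC and AP-3 genes cause Hermansky-Pudlak syndrome, with albinism.

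The deposited values are normalised counts. Their sums ran from 10735983 to 21711424 in premigratory libraries and from 17765775 to 24227327 in migratory libraries. SOX10, the gene whose regulatory sequence drives the reporter, was present in all 12 libraries, at 3769, 9582, 16200 and 6676 in premigratory libraries 1 to 4 and between 1225 and 22646 (median 10814) in migratory libraries, and was not called (log2 difference -0.02, SE 0.71, limma adjusted p = 0.987). Summed neural crest markers were 6309 to 22705 before and 3428 to 57943 after migration. Of their 7 identifiers, premigratory libraries 1 to 4 had 2, 4, 5 and 6 at 10 or more, and migratory libraries had 4 to 7. Those of premigratory 1 were SOX10 and FOXD3. Markers of other tissues were also present and their levels differed between libraries. Summed muscle markers were 424 to 3785 before migration and 886 to 850563 after it, and summed epidermis markers were highest in premigratory 1 at 1822634. Blood markers reached 1739341 in migratory 5. Ionocytes of the skin are rich in V-ATPase. Their markers summed to 12.2 to 31.2 before migration, to 5.94 to 111 in migratory 3, 4, 5 and 7, to 8148, 24098 and 100030 in migratory 2, 6 and 8 and to 483779 in migratory 1, and 6 of their 10 identifiers were under 10 in every library. The marker atp1a1a.2 alone made up 7974, 20108, 92106 and 454776 of the sums in migratory 2, 6, 8 and 1. In the same 4 libraries the ionocyte marker foxi3b was at 0, 3892, 7427 and 23120. The summed level of macrophage markers, relevant because these cells are rich in lysosomes, was 44.3 to 4566 before migration and 11.4 to 2593 after it. Of the 16 macrophage identifiers, 7 were under 10 in every library, SPI1 among them. The identifiers of the macrophage gene MPEG1 were at 31 or less in all 12 libraries. The leukocyte gene CORO1A was under 3 before migration and in migratory 1, 2 and 4. It was at 283 to 1908 in migratory 3, 5, 6, 7 and 8. The gene csf1ra, listed here with the macrophage markers but not particular to macrophages, was at 523, 634 and 1180 in migratory 5, 6 and 7. LCP1 was at 4563 in premigratory 1. The listed marker cybb was at 508 in migratory 7 and at 43.3 or less in every other library. The part of these markers in the members' values was not tested.

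More of these genes were detected, and at higher values, in migratory than in premigratory libraries. Of the 56 genes that passed the low-value filter (10 or more in at least 4 libraries), 28 were higher in migratory cells at an adjusted p under 0.05 (limma on log2(value + 1), Benjamini-Hochberg adjustment over all 12122 genes tested) and 0 were lower. Among all genes tested, 12.4% were called higher and 0.132% lower. At an unadjusted p under 0.05, 41 of the 56 were higher and 0 lower, beside 31.8% and 0.66% of all genes tested. In 13 genes every migratory library lay above every premigratory one, which held for 4.83% of all genes tested. Some of the 13 were nonetheless under 10 in migratory 4. These were VPS18 at 1.99, ATP6V0A1 (ENSDARG00000020847) at 2.95 and ATP6V1C1 (ENSDARG00000035880) at 3.91. Such cases were not counted over all genes tested. All 56 would have passed the filter on the migratory libraries alone, so their count is read here as a description. With no filter the median log2 difference of all 72 was 5.01, against 0.94 over 25095 genes. These sets differ in detection: 16 of the 72 members did not pass the low-value filter, beside 13756 of all 25878 genes. The part of this in the 2 medians was not tested.

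These calls depended on the scaling and on the handling of the replicate number. The whole table moved towards the migratory stage: the median log2 difference of all genes tested was 2.67, with 1508 genes called higher and 16 lower. Quantile normalisation, which gives every library the same distribution, left 139 higher and 53 lower among all genes (1.15% higher). It left 8 of the members higher and 0 lower, with a median difference of 3.28 over the 56. The 8 were ATP6V1C1 (ENSDARG00000035880), atp6v1e1b, ATP6V1F, ATP6V1G1, ATP6V0D1, atp6v0e1, ATP6AP2 and DTNBP1, so 7 of them belong to the proton pump. With the replicate number, which the labels call a batch, as a fixed block, no gene in the table was called and 0 members were. In that fit 28 members had an unadjusted p under 0.05, all higher, beside 18.5% of all genes. Migratory 5 to 8 share their number with no premigratory library and add nothing to its stage difference, and it had 3 residual degrees of freedom. With the replicate number as a random block, 28 members were called. The correlation within blocks was estimated at 0.0175, so that fit was close to the fit without a block and is not a separate check of it.

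Detection of these genes differed between the stages. Premigratory libraries 1 to 4 had 22, 20, 5 and 25 of the 72 genes at a value of 10 or more, and migratory libraries had between 41 and 58. As shares, these were 30.6%, 27.8%, 6.94% and 34.7% of the members before migration and 56.9% to 80.6% after it. Over all genes in the table the shares were 14.1% to 26.6% before and 34.8% to 46.0% after, so detection of the whole table also moved with stage, and its part in the result was not tested. Intermediate values were rare in the members and in the whole table. Of 288 premigratory values of the members 216 were under 10, 15 lay from 10 to below 100, and 57 reached 100. Over all genes, of 103512 premigratory values 81557 were under 10, 6000 lay from 10 to below 100, and 15955 reached 100. Premigratory 3 stood apart, with CTSB, CTSD, ctsla, BLOC1S1 and atp6v0e1 as its 5 detected members.

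**Figure D1:**
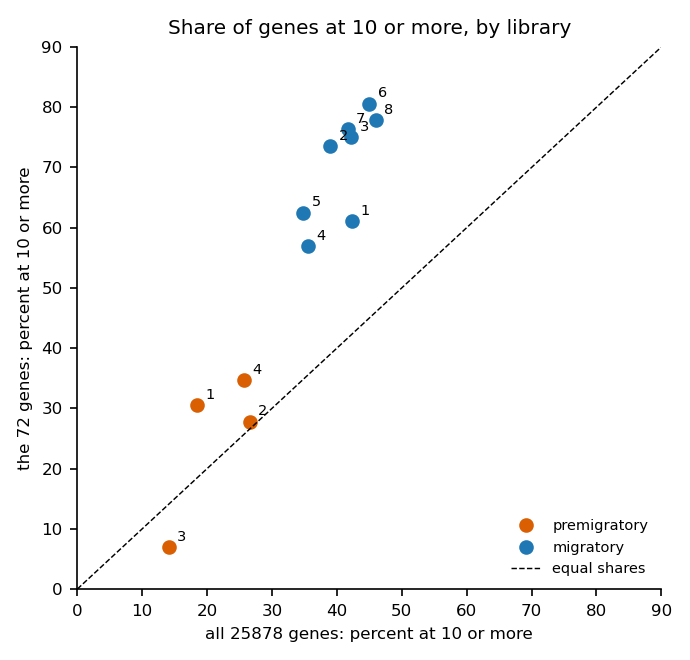
Percent of the 72 genes (vertical axis) and of all 25878 genes (horizontal axis) with a normalised value of 10 or more, 1 point per library with its replicate number. The dashed line marks equal shares. The 8 migratory libraries lie between 56.9% and 80.6% and all above the line, and premigratory 3 lies below it at 6.94%.

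**Figure D2:**
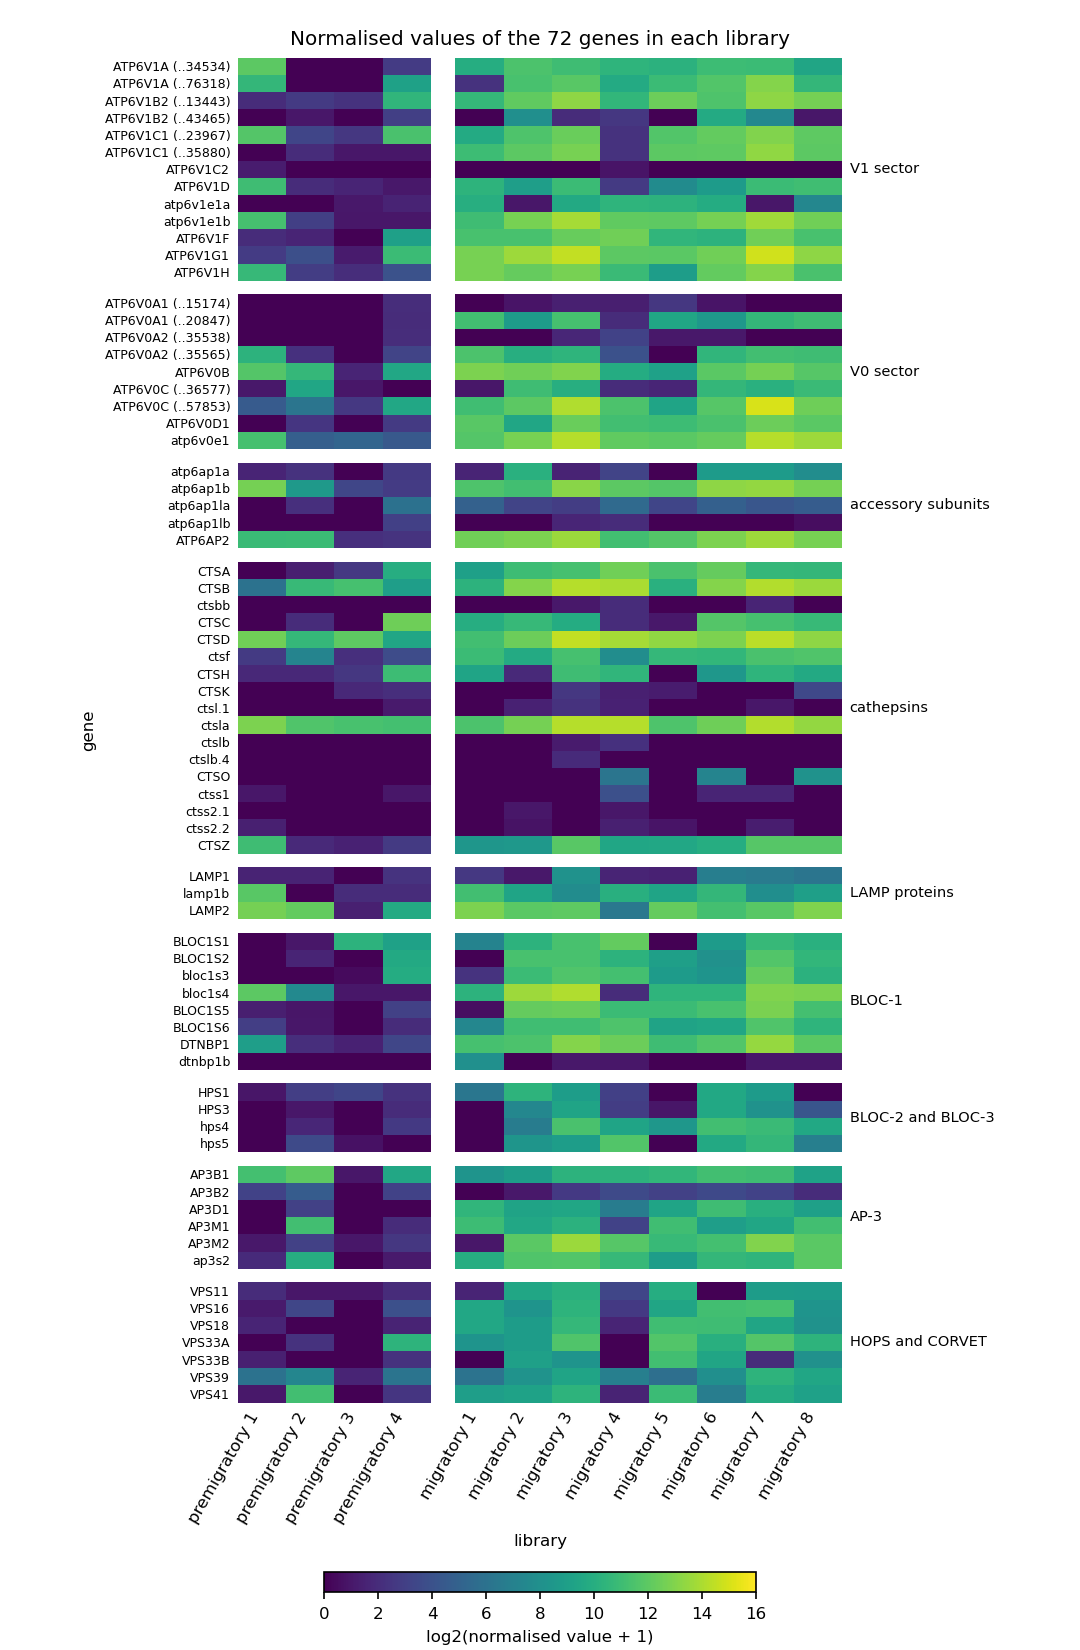
Normalised value of each of the 72 genes (rows, grouped by role) in each of the 12 libraries (columns), as log2(value + 1) by colour. Last digits of the Ensembl identifier separate genes that share a symbol. Most premigratory cells of the map are dark (216 of 288 under 10), and rows dark in all 12 libraries are mainly cathepsin genes.

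Where a gene was detected before migration, its value lay more often below the gene's detected migratory values than above them, and most often within their range. Tested members had 71 premigratory values of 10 or more, and 28 of these (39.4%) lay below the range of the gene's detected migratory values, 36 (50.7%) within it and 7 (9.86%) above it. Over all genes tested, 20203 such values split into 17.6% below, 54.9% within and 27.5% above. The 56 members all passed the filter on migratory libraries alone, whereas 970 of the 12122 genes tested needed premigratory values to pass. The part of this in the 27.5% was not tested. The median log2 ratio to the gene's migratory median was -1.45 for the members and 0.22 for all genes tested. By role the V0 sector stood at -2.53 over 12 values and AP-3 at 0.91 over 5 values.

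The V1 sector had 13 identifiers, of which 11 were tested and 8 were higher after migration. Its catalytic hexagon is made of subunits A and B. ATP6V1B2 (ENSDARG00000013443), a nucleotide-binding B subunit, had values of 2.98, 5.71, 3.93 and 1446 in premigratory libraries and 1481 to 10083 (median 4848) in migratory ones. Premigratory 4 alone was detected and came close to the lowest migratory library, without reaching it (log2 difference 7.66, SE 1.49, adjusted p = 0.00486). ATP6V1A (ENSDARG00000034534), a catalytic A subunit, was at 3989, 0, 0 and 5.8 before migration and at 673 to 2821 (median 1627) after it. Premigratory 1 thus lay above every migratory library, and the difference (6.85, SE 1.90, adjusted p = 0.0285) lost its call when premigratory 2, 3 or 4 was left out (adjusted p = 0.0634, 0.089 and 0.0559). The other A gene, ENSDARG00000076318, was detected in premigratory 1 and 4 at 1545 and 572 and did not pass (adjusted p = 0.128, or 0.0445 without migratory 1).

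The peripheral stalks of the pump are built from subunits E and G, with subunit C binding at their foot. ATP6V1G1 was at 5.91, 13.5, 1.22 and 1879 in premigratory libraries and at 3914 to 29712 (median 8378) in migratory ones, 475 ± 936 (SD, n = 4) against 12191 ± 9707 (SD, n = 8). The groups did not overlap (log2 difference 8.52, SE 1.44, adjusted p = 0.0016). ATP6V1C1 (ENSDARG00000035880) was under 3 in all premigratory libraries, at 0, 2.88, 0.98 and 0.959. Its migratory values ran from 3.91 in migratory 4 to 10330 (median 4076), with a log2 difference of 9.94 (SE 1.89, adjusted p = 0.00389). Its paralog under the same symbol, ENSDARG00000023967, had premigratory values of 3331, 8.61, 4.9 and 2749, overlapped widely with the migratory range of 3.94 to 8097 and was not called (adjusted p = 0.276). Both C genes were at the level of a few units in migratory 4. The E genes also differed in spread: atp6v1e1b was at 2462, 6.69, 0.981 and 0.976 before migration and at 2084 to 14786 in all 8 migratory libraries (log2 difference 8.54, SE 1.61, adjusted p = 0.00364). Its paralog atp6v1e1a was under 2 in all 4 premigratory libraries and also in migratory 2 and 7, at 0.943 and 0.99, and otherwise at 170 to 1337. The call for atp6v1e1a (adjusted p = 0.0399) was lost in 8 of the 12 fits that left out 1 library, among them each premigratory library (adjusted p = 0.0632 to 0.0899) and migratory 3, 5, 6 and 8 (0.05 to 0.0618).

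Of the rotor and regulatory subunits, ATP6V1F, part of the rotor shaft, was at 2.94, 1.96, 0 and 522 before migration and at 1234 to 5968 (median 2647) after it, with no overlap (log2 difference 8.38, SE 1.56, adjusted p = 0.00324). ATP6V1H, a regulator of V1 activity, was at 1680, 6.11, 3.13 and 15.3 and rose to 463 to 8270 (log2 difference 6.84, adjusted p = 0.0101). ATP6V1D, the other shaft subunit, was detected in premigratory 1 at 2134, near the migratory maximum of 2184, and did not pass (adjusted p = 0.116). Without premigratory 1 or migratory 4 it was called (adjusted p = 0.0233 and 0.0472). ATP6V1C2 and ATP6V1B2 (ENSDARG00000043465) did not pass the filter, and ATP6V1C2 was under 10 in every library.

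The V0 sector had 9 identifiers, of which 7 were tested and 4 were higher. ATP6V0D1, the subunit that couples the membrane ring to the rotor shaft, was at 0, 4.62, 0 and 5.62 in premigratory libraries and at 722 to 5476 (median 3170) in migratory ones, 2.56 ± 2.98 (SD, n = 4) against 3213 ± 1611 (SD, n = 8). It was under 10 in all 4 premigratory and detected in all 8 migratory libraries, and its log2 difference of 10.13 (SE 1.32, adjusted p = 0.000432) was the highest among the members. Small membrane subunit e, atp6v0e1, was the sole pump gene detected in all 12 libraries, at 2499, 27.1, 35.4 and 20.1 before migration and at 3409 to 19337 (median 5809) after it. Its groups did not overlap either, although premigratory 1 stood far above the other 3 (log2 difference 6.44, SE 1.19, adjusted p = 0.00314).

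The proton-carrying ring is made of c subunits. ATP6V0C (ENSDARG00000057853) was at 21.8, 72.5, 5.01 and 743 in premigratory libraries and at 650 to 33506 (median 3734) in migratory ones (log2 difference 6.44, SE 1.35, adjusted p = 0.00765). Migratory 3 and 7 were highest, at 17666 and 33506, and premigratory 4 overlapped with migratory 5. A second c gene, ENSDARG00000036577, was detected in premigratory 2 at 709 and in 5 of the 8 migratory libraries and was not called (adjusted p = 0.24). ATP6V0B, a ring subunit of a related type, was already at 3339, 1596 and 741 in premigratory 1, 2 and 4 and was not called (log2 difference 3.34, adjusted p = 0.141). Among the a subunits, which form the proton channel with the ring, ATP6V0A1 (ENSDARG00000020847) was at 0, 0, 0 and 2.9 before migration and at 2.95 to 2451 (median 1135) after it (log2 difference 8.60, SE 1.80, adjusted p = 0.00748). Its lowest migratory value, in migratory 4, was no higher than a few units. ATP6V0A2 (ENSDARG00000035565) did not pass (adjusted p = 0.187), and the second ATP6V0A1 and ATP6V0A2 identifiers were under 10 in every library. The name pattern misses TCIRG1, which encodes the a3 subunit. Both its identifiers are named here after their values were seen. ENSDARG00000105142 was at 0.803, 9.92, 0 and 17.7 before migration and at 19 to 1873 after it (log2 difference 7.43, adjusted p = 0.00974). ENSDARG00000016835 was under 10 in all 4 premigratory and in 4 of the 8 migratory libraries, reached 787 in migratory 3 and was not called (log2 difference 3.75, adjusted p = 0.191).

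Counted as subunit kinds rather than genes, with paralogs of 1 subunit counted once, all or nearly all of the pump was detected after migration and less of it before. Of the 8 kinds of the V1 sector, premigratory libraries 1 to 4 had 5, 1, 0 and 6 at 10 or more, and 7 of the 8 migratory libraries had all of them. In migratory 4, C and D were not detected. Of the 5 kinds of V0, premigratory libraries had 4, 3, 1 and 3, and all 8 migratory libraries had every kind. Together, 9, 4, 1 and 9 of the 13 kinds were detected before migration and 11 to 13 after it. Over all genes in the table, 14.1% to 26.6% were detected before and 34.8% to 46.0% after. Counting paralogs together raises detection, and no such count was made for other genes. The kinds of this and the other complexes are therefore a description. The kinds seen before migration differed between libraries: B, F and G of V1 were not detected in premigratory 1, whereas in premigratory 4 these were D and E. Subunit d of V0 was detected in none of the 4.

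**Figure D3:**
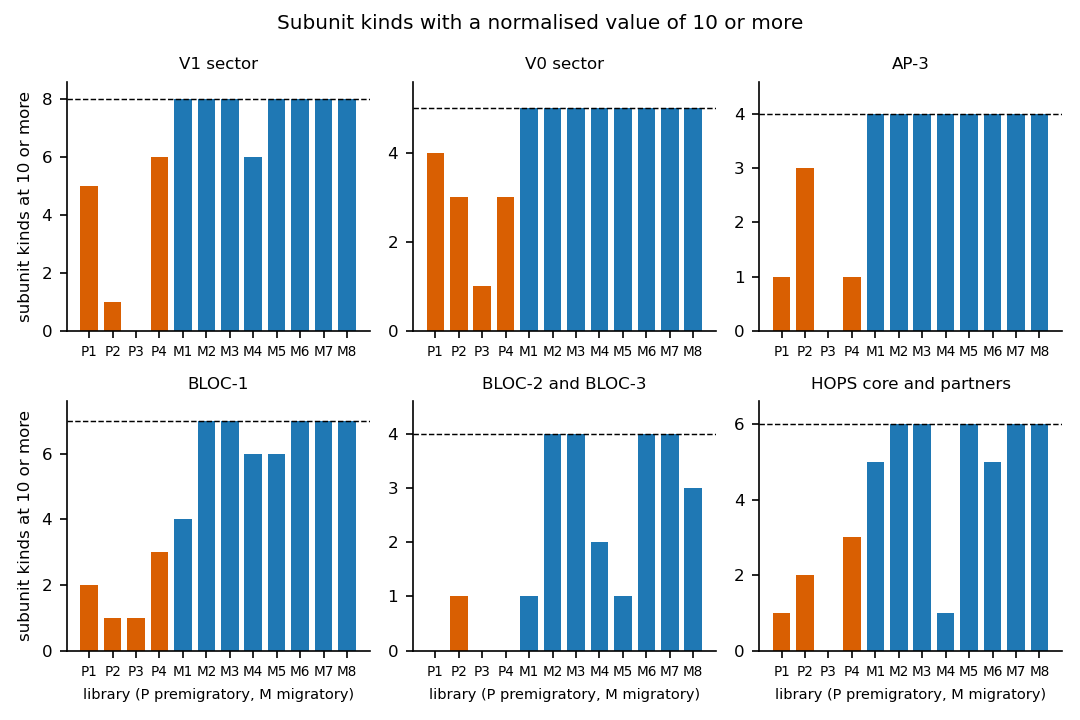
Number of subunit kinds with a normalised value of 10 or more (vertical axis) in each library (P1 to P4 premigratory, M1 to M8 migratory), 1 panel per complex, with the dashed line at the number of kinds. All 8 migratory libraries reach the line for V0 and AP-3, and no premigratory library reaches it in any panel. Over all genes in the table, 14.1% to 26.6% were at 10 or more in premigratory and 34.8% to 46.0% in migratory libraries.

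The accessory subunits help the pump assemble and reach its membrane. ATP6AP2, also known as the prorenin receptor, was at 1818, 1898, 3.37 and 4.03 before migration and at 2313 to 13025 (median 7053) after it, with no overlap between groups. Its log2 difference of 6.10 (SE 1.53, adjusted p = 0.0187) lost its call without premigratory 3 (adjusted p = 0.0646) or premigratory 4 (0.0515). A homologue of ATP6AP1, atp6ap1b, was at 6377, 393, 8.94 and 5.9 before migration and at 2317 to 10864 (median 5296) after it. Premigratory 1 lay inside the migratory range, and the call (log2 difference 5.52, adjusted p = 0.0249) was lost without the same 2 libraries (adjusted p = 0.0841 and 0.066). Its paralog atp6ap1a and the related atp6ap1la did not pass (adjusted p = 0.212 and 0.274), and atp6ap1lb was under 10 everywhere.

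Cathepsins are the proteases of the lysosome. Of 17 identifiers, 8 were tested and 4 were higher. CTSB, CTSD and ctsla were detected in all 12 libraries and encode cathepsins B, D and L. CTSD, an aspartic protease, was at 6014, 1582, 4143 and 713 before migration and at 2235 to 23932 (median 10069) after it, 3113 ± 2421 (SD, n = 4) against 11909 ± 7582 (SD, n = 8). Its groups overlapped and it was not called (log2 difference 2.05, SE 0.71, adjusted p = 0.0654), except without premigratory 1 or migratory 1 (adjusted p = 0.0445 and 0.0264). The cysteine protease gene ctsla was at 7497, 3143, 2546 and 2431 before migration and at 2895 to 18977 (median 8576) after it (log2 difference 1.25, SE 0.65, adjusted p = 0.186), the smallest difference among the members tested. CTSB was at 65.5, 1785, 2482 and 479 before migration and at 1155 to 19320 (median 10448) after it. It was called (log2 difference 3.55, SE 1.06, adjusted p = 0.0393), but the call was lost in 8 of the 12 fits without 1 library: those without premigratory 1 (adjusted p = 0.109) or 4 (0.0727) and those without migratory 2, 3, 4, 6, 7 or 8 (0.0526 to 0.0683).

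**Figure D4:**
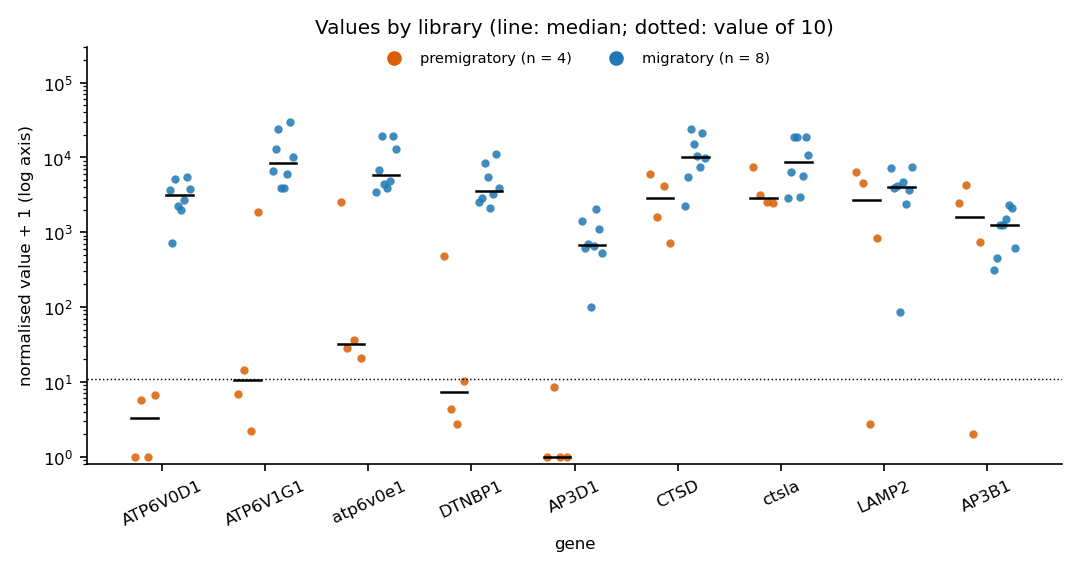
Normalised value + 1 (log axis) of 9 genes in the 4 premigratory and 8 migratory libraries, 1 point per library, with a line at the group median and a dotted line at a value of 10. ATP6V0D1 and AP3D1 are under 10 in every premigratory library, whereas CTSD and ctsla are at 713 or more in all 12.

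CTSA, ctsf and CTSZ were also higher after migration. CTSA, a carboxypeptidase that also protects other lysosomal enzymes, was at 0, 1.56, 5.05 and 988 before migration and at 517 to 6027 (median 2269) after it (log2 difference 7.62, SE 1.67, adjusted p = 0.0095). Cathepsin F, from ctsf, was at 5.55, 150, 3.48 and 11.5 and then at 223 to 3060 (median 1767), with no overlap (log2 difference 6.55, SE 1.40, adjusted p = 0.00834). CTSZ was at 2123, 2.62, 1.8 and 5.53 and then at 331 to 3719 (median 848), with premigratory 1 inside the migratory range. Its call (log2 difference 5.87, adjusted p = 0.0398) was lost without premigratory 2, 3 or 4 (adjusted p = 0.076, 0.109 and 0.0774) and without migratory 3, 6, 7 or 8 (0.059 to 0.0694). CTSH, an aminopeptidase, was at 2039 in premigratory 4 and under 5 in the other 3, ranged from 0 to 2093 after migration and was not called (adjusted p = 0.343). The other 9 cathepsin identifiers did not pass the filter. They include cathepsin K and the ctss genes, known in mammals from osteoclasts and from macrophages and other antigen-presenting cells, with highest values of 9.91 for CTSK and 13.8 for ctss1. CTSO, also among the 9, was at 73.8, 151 and 278 in migratory 4, 6 and 8 and at 0 in every other library.

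The LAMP proteins, the abundant glycoproteins of the lysosomal membrane, gave no call among 3 genes. LAMP2 was at 6348, 4511, 1.7 and 840 before migration and at 85.3 to 7514 (median 3994) after it, 2925 ± 3007 (SD, n = 4) against 4195 ± 2429 (SD, n = 8). The groups overlapped almost fully, and its log2 difference of 2.43 (SE 1.75, adjusted p = 0.342) turned to -0.08 without premigratory 3. The gene lamp1b was at 3678, 0, 2.99 and 2.92 before migration and at 208 to 2268 (median 652) after it. Premigratory 1 was above every migratory library, so that the premigratory mean of 921 was above the migratory mean of 893 while the log2 difference was 5.43 (adjusted p = 0.0705). Without that library lamp1b was called (log2 difference 8.06, adjusted p = 0.0028). LAMP1 was under 10 before migration, reached 74.8 to 271 in migratory 3, 6, 7 and 8 and did not pass (adjusted p = 0.2).

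BLOC-1 carries cargo from endosomes to forming melanosomes. Of its 8 identifiers 7 were tested and 4 were higher. BLOC1S6, known as pallidin from the mouse coat-colour mutant pallid, was at 6.5, 0.96, 0 and 2.96 before migration and at 171 to 3151 (median 1787) after it, with no overlap (log2 difference 8.78, SE 1.43, adjusted p = 0.00128). DTNBP1, encoding dysbindin, was at 478, 3.35, 1.71 and 9.19 and then at 2092 to 11146 (median 3579), again with no overlap (log2 difference 8.09, SE 1.37, adjusted p = 0.00162). Both genes were thus detected in all 8 migratory libraries. BLOC1S5, known as muted in the mouse, was under 8 in all premigratory libraries and at 1957 to 7015 in 7 migratory ones, but at 0.511 in migratory 1 (log2 difference 8.95, SE 2.05, adjusted p = 0.0122). For bloc1s3, the values were 0, 0, 0.348 and 900 before migration and 4.14 to 4807 after it, with an adjusted p of 0.0484. That call was lost in 10 of the 12 fits without 1 library, with premigratory 4 and migratory 1 as the exceptions (adjusted p = 0.0552 to 0.129).

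The other 3 BLOC-1 genes tested were detected in some premigratory libraries and were not called. The gene dtnbp1b was at 0 in all 4 premigratory libraries, reached 254 in migratory 1 alone and did not pass the filter. BLOC1S1 was the sole member of its complex in premigratory 3, at 1258, and was listed at 0 in migratory 5. The gene bloc1s4 was at 4032 and 188 in premigratory 1 and 2, at 1228 or more in 7 migratory libraries and at 2.91 in migratory 4 (adjusted p = 0.121, or 0.0489 without premigratory 1 and 0.0296 without migratory 4). Premigratory libraries held 2, 1, 1 and 3 of the 7 subunit kinds measured here, and 5 of the 8 migratory libraries held all 7. SNAPIN, the remaining BLOC-1 subunit, falls outside the name pattern and was named after its values were seen. It was at 2.06, 2.97, 6.06 and 6.9 before migration and at 0.944 to 7838 (median 2035) after it, with migratory 4 lowest (log2 difference 7.67, SE 1.97, adjusted p = 0.0204).

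BLOC-2 and BLOC-3 act in the later steps of melanosome maturation, and BLOC-3, made of HPS1 and HPS4, activates RAB32 and RAB38. Of 4 genes tested, 1 was higher. The gene hps4 was at 0, 2.27, 0 and 5.34 before migration, at 0 in migratory 1 and at 99.5 to 2688 in the other 7 (log2 difference 7.34, SE 1.99, adjusted p = 0.0265). This call was lost without premigratory 1 or 3 (adjusted p = 0.0607 and 0.0743). Its partner HPS1 was under 10 in all premigratory libraries and at 76.5 to 1321 in 5 migratory ones, but under 10 in migratory 4, 5 and 8 (adjusted p = 0.247). For the BLOC-2 genes hps5 and HPS3 the adjusted p was 0.0848 and 0.111, and hps5 was called without migratory 1 or 5 (adjusted p = 0.0363 and 0.0359). All 4 genes were detected together in 4 of the 8 migratory libraries and in no premigratory one.

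AP-3, the adaptor that packs cargo into vesicles bound for lysosomes and melanosomes, had 6 identifiers, of which 5 were tested and 3 were higher. AP3D1, its delta subunit, altered in the mouse coat-colour mutant mocha, was at 0, 7.51, 0 and 0 before migration and at 99.7 to 2061 (median 673) after it. No premigratory library reached 10 and the groups did not overlap (log2 difference 8.65, SE 1.46, adjusted p = 0.00158). The mu subunit AP3M2 was under 8 before migration and at 1766 to 12417 in 7 migratory libraries, with 0.974 in migratory 1 (log2 difference 8.72, SE 2.03, adjusted p = 0.0128). The sigma subunit ap3s2 was at 2.78, 993, 0 and 1.1 before migration and at 467 to 3884 (median 1606) after it, and premigratory 2 lay inside the migratory range (log2 difference 7.48, adjusted p = 0.0122).

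AP3B1, a large beta subunit, was not called. It was at 2428, 4265, 0.974 and 742 before migration and at 312 to 2286 (median 1242) after it, so that premigratory 1 and 2 were above every migratory library. Its mean was 1859 ± 1898 (SD, n = 4) before and 1216 ± 735 (SD, n = 8) after migration, lower after than before, while the log2 difference was 1.5 (SE 1.69, adjusted p = 0.562). Without premigratory 3 that log2 difference was -0.99 and under quantile normalisation it was -0.73, neither of them called. AP-3 was complete in its 4 kinds of subunit in all 8 migratory libraries and held 1, 3, 0 and 1 kinds in premigratory ones.

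HOPS and CORVET share the core subunits VPS11, VPS16, VPS18 and VPS33A, and VPS39 and VPS41 belong to HOPS. Of 7 genes tested, 2 were higher. The 7 include VPS33B, which the name pattern takes in beside these 6 subunits and which was not called (adjusted p = 0.12). VPS18 was at 1.96, 0, 0 and 1.92 before migration and at 1.99 to 2191 (median 714) after it (log2 difference 7.99, SE 1.80, adjusted p = 0.0112). The groups did not overlap, but the lowest migratory value, in migratory 4, was 1.99. VPS16 was at 1.11, 9.03, 0 and 14.3 before migration and at 308 to 2455 in 7 migratory libraries, with 5.23 in migratory 4 (log2 difference 6.77, SE 1.77, adjusted p = 0.022, lost without premigratory 3 at 0.0661). The HOPS subunit VPS39 was detected in 11 of the 12 libraries, at 63.3, 159, 2.02 and 69.5 before and at 53.4 to 1320 (median 268) after migration, and was not called (adjusted p = 0.234). VPS41 was at 2326 in premigratory 2, above every migratory library, and VPS33A was at 1303 in premigratory 4. Neither passed (adjusted p = 0.155 and 0.103). VPS41 was called without premigratory 2 (adjusted p = 0.0289), and VPS33A without premigratory 4 or migratory 4 (0.032 and 0.0224). In migratory 4, VPS39 was the sole detected kind of the 6, while 5 of the 8 migratory libraries had all 6.

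**Figure D5:**
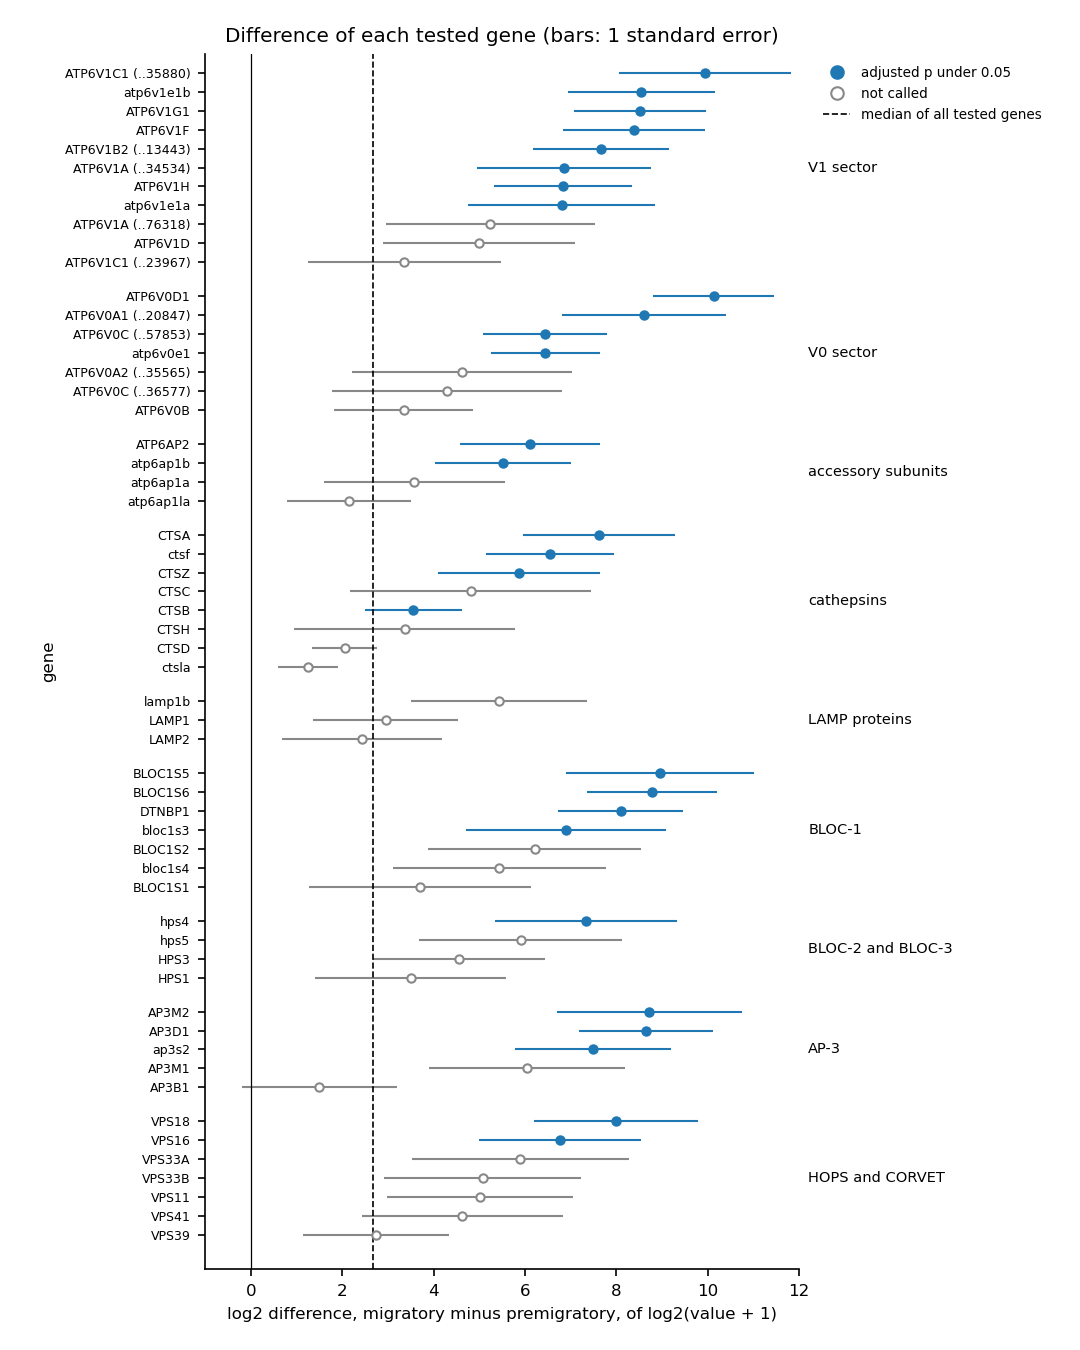
Log2 difference (migratory minus premigratory, on the log2(value + 1) scale) of the 56 tested genes by role, with bars of 1 standard error. Filled points have an adjusted p under 0.05, open points do not, and the dashed line marks the median of all genes tested, 2.67. ATP6V0D1 is farthest right at 10.13 and ctsla lowest at 1.25.

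Among migratory libraries the members were not at the same level. Migratory 7 was the highest of the 8 for 9 of the 18 tested V1 and V0 genes (50.0%), and migratory 3 for 4 (22.2%). Over all genes tested, the same 2 libraries were highest for 6.75% and 8.39%. For the BLOC, AP-3, HOPS and CORVET genes, with VPS33B counted among them, they were highest in 8 and 4 of 23. Migratory 1 was counted as lowest for 10 of these 23 genes and migratory 4 for 7, beside 23.6% and 16.2% of all genes tested. Where libraries tied, as at a value of 0, the lowest-numbered library alone was counted, which raises the counts of migratory 1. For example, hps5 was at 0 in migratory 1 and 5, and VPS33B was at 0 in migratory 1 and 4.

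Migratory 3 or 7 was the highest library for 11 of the 13 pigment cell marker identifiers. OCA2 and ltk were highest in migratory 4, at 925 and 286, as was trpm1b at 15003. DCT, a melanin synthesis enzyme, was at 45760 in migratory 3 and 75726 in migratory 7, at 10080 in migratory 8, at 1965 in migratory 2 and under 20 in the other 4. The melanosome matrix gene pmela was at 53053 and 98402 in migratory 3 and 7. TYRP1 (ENSDARG00000056151), another melanin synthesis gene, was at 91917 and 138470 in them and at 2345 or less in all other libraries. Muscle markers summed to 1442 and 886 and epidermis markers to 1487 and 1536 in these 2 libraries, the lowest epidermis sums of all 12. Macrophage markers summed to 716 and 2519 in them, where the highest migratory sum was 2593 in migratory 6. The summed level of pigment cell markers was 93.4 to 1130 before migration and 3159 to 1802884 after it. The marker gch2 alone made up 144510 of 148647 in migratory 5, 963899 of 990665 in migratory 6 and 1416635 of 1802884 in migratory 7. In migratory 3 it was 145520 of 418139, and in migratory 4 it was 18.5 of 3159. The sum did not always follow the melanin synthesis genes. In migratory 6, DCT was at 2.2 and TYRP1 (ENSDARG00000056151) at 0.975, while pmela was at 10615. The part of the pigment cell markers in the members' difference was not tested.

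Other genes of the same organelles, from lists assembled with earlier results of these data known, also held genes called higher and none called lower. Of 99 further lysosome genes 86 were tested, 30 were higher (34.9%) and 0 lower, and 53 were higher and 0 lower at an unadjusted p under 0.05, where all genes tested stood at 12.4% called higher and 31.8% higher at the unadjusted threshold. CTNS, the cystine transporter of the lysosome, was at 0, 0, 0 and 4.84 before migration and at 412 to 2531 (median 1166) after it (log2 difference 9.49, SE 1.38, adjusted p = 0.000642). RAB7A (ENSDARG00000021287), a late endosome GTPase, was under 3 before migration and at 90.3 to 5737 after it (8.68, adjusted p = 0.00201). The protease gene LGMN (6.99), ROGDI (8.15), whose product binds the V-ATPase, and PSAP (7.22), which encodes the saposin precursor, were called as well, with adjusted p of 0.00368, 0.00748 and 0.00758. TFEB and TFE3, known in mammals as regulators of lysosome genes and named after their values were seen, were not called (log2 difference 3.53 and 3.74, adjusted p = 0.118 and 0.279).

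Of 44 further melanosome and pigment genes 36 were tested, 9 were higher (25%) and 0 lower, and 22 were higher and 0 lower at an unadjusted p under 0.05, beside the same 12.4% and 31.8% of all genes tested. GPR143, a receptor of the melanosome membrane, was at 4.2, 5.18, 1.09 and 0 before migration and at 303 to 22136 (median 5422) after it (log2 difference 10.28, SE 1.48, adjusted p = 0.000623). MITF (ENSDARG00000003732), the master regulator of melanophores, was under 8 before migration and at 374 to 16031 in 7 migratory libraries, but at 5.68 in migratory 4 (8.26, adjusted p = 0.0126). RAB27A, which ties melanosomes to the cytoskeleton, was under 2 before migration and at 1.96 to 2331 after it (7.45, adjusted p = 0.0149). The genes trpm1b (7.10), BACE2 (8.60) and tspan36 (6.11) were also called, with adjusted p of 0.00715, 0.0122 and 0.0178. The genes DCT, TYRP1 (ENSDARG00000056151) and pmela, high in migratory 3 and 7, were tested and not called (log2 difference 4.64, 4.87 and 6.41, adjusted p = 0.252, 0.226 and 0.0983).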

How the data were processed

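RNA sequencing of 4 premigratory and 8 migratory libraries of 20 cells was analysed. Libraries were made by Nextera tagmentation after amplification of cDNA with a SMART-Seq v4 kit, per the labels' protocols. The submitters' processing notes name fastp 1.0, Salmon and GRCz11, without saying what each was used for. The values the authors deposited are a signal per gene that they call normalised counts. The normalisation method is not given in the sources used here, and whole reads could not be recovered. Whether the values are scaled to gene length is not stated. Apart from the marker sums, in which genes with high values weigh most, levels of different genes are therefore not compared. Sums of values are given in place of depth, which normalised values do not show, and the amplified reads carry no molecular identifiers. Gene symbols came from a gene name table, which matched 23604 of 25878 identifiers.

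The stages were compared by linear models on log2(value + 1) (limma 3.58.1 in R 4.3.3; lmFit, then eBayes with its trend option) over genes at 10 or more in at least 4 libraries. Fold changes on this scale understate changes of low genes and depend on the pseudocount. The Benjamini-Hochberg adjustment ran over all 12122 genes tested, and a gene is called at an adjusted p under 0.05. The method was also run on simulated data, but no outcome of that run is reported here and no conclusion is drawn from it. The run is not read as a check of the model for these values, among which intermediate levels were rare. The p-values reflect the spread among these 12 libraries. A gene is described as detected at a value of 10 or more.

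Members, lists and tests were chosen with earlier results of these data known. Named genes are every called member and, in each role, the 2 with the highest mean and the 1 with the largest p, plus up to 6 of each further list with the smallest p and SOX10. Others named were chosen after their values were seen, and a gene under this rule is not reported here. No sequences or coordinates are given.

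The replicate number pairs libraries 1 to 4, since the labels also call it a batch. Deviations of same-numbered libraries from their group means correlated at 0.155, 0.0118, 0.0424 and 0.0342. No pair of libraries correlated above 0.805, so none repeats another. Alternatives were other pseudocounts, filters and scalings, the replicate number as a fixed or random block, library weights, leaving out each library and, added after seeing the data, leaving out the 3 libraries with the fewest genes (premigratory 3, migratory 4 and migratory 5).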

Additional observations from a re-analysis of the deposited data

Results flagged for a closer look

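A sample far from the others of its stage was found for 24 values among the 88 groups tested (44 named genes, each in premigratory and migratory libraries). The rule's nominal chance rate is about 1 in 20 groups. It was not checked for values like these, most of which were under 10 or at 100 or more. The count of flags is therefore not set against chance. Of the 24, 10 were the lowest migratory value in migratory 4, 4 were the lowest in migratory 1 and 1 was the lowest in migratory 5, and the other 9 were the highest premigratory value. All are given here as values, and no cause was tested.

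Migratory 4 was far below the other migratory libraries in both C genes of the V1 sector, at 3.91 for ATP6V1C1 (ENSDARG00000035880) and 3.94 for ATP6V1C1 (ENSDARG00000023967), and in ATP6V0A1 (ENSDARG00000020847) at 2.95. LAMP2 was at 85.3 there, bloc1s4 at 2.91 and AP3D1 at 99.7. The HOPS and CORVET genes VPS16, VPS18, VPS33A and VPS41 were at 5.23, 1.99, 0 and 1.88 in the same library. Migratory 1 was far below the others for bloc1s3 at 4.14, BLOC1S5 at 0.511, hps4 at 0 and AP3M2 at 0.974. Migratory 5 was so for BLOC1S1, listed at 0.

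Among premigratory libraries, premigratory 4 stood above the other 3 for ATP6V1B2 (ENSDARG00000013443) at 1446, CTSH at 2039 and bloc1s3 at 900, and for ATP6V0A1 (ENSDARG00000020847) at 2.9, which is under the detection level used here. Premigratory 1 stood above the others for atp6v0e1 at 2499, CTSZ at 2123 and lamp1b at 3678. Premigratory 2 did so for ATP6V0C (ENSDARG00000036577) at 709 and for AP3D1 at 7.51, also under the detection level.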

How the results depend on the processing

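The number of members higher after migration, 28 as reported, was 21 to 29 with pseudocounts of 0.5 and 10, no filter, a mean filter, the same total, median-of-ratios scaling, library weights and a random replicate block. It was 19 without the 3 libraries with the fewest genes, all 19 among the 28. Quantile normalisation gave 8, and the replicate block gave 0 with 3 residual degrees of freedom against 10 without it. The count of members lower was 0 in every alternative run. Leaving out 1 library gave 20 to 32 members. It left 19 of the 28 called in all 12 such fits, and 10 other members were called in at least 1. For the further lysosome genes, 30 as reported, median-of-ratios scaling gave 16, quantile normalisation 6 and the replicate block 0, with 21 to 36 when 1 library was left out. For the further melanosome and pigment genes, 9 as reported, quantile normalisation gave 1 and the replicate block 0, with 7 to 13 when 1 library was left out. The direction turned for genes that were not called: under quantile normalisation the log2 difference was -0.73 for AP3B1, -0.89 for CTSH, -0.89 for HPS1, -1.37 for VPS39 and -1.10 for atp6ap1la, without premigratory 3 it was -0.99 for AP3B1 and -0.08 for LAMP2, with a highest value of 2.70 for AP3B1 and 3.65 for LAMP2 without another library, and without the 3 libraries it was -1.14 for AP3B1. The cause was not tested. With 20 cells per library, a value under 10 does not show that a transcript was absent.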
